A study of Mus musculus with 8 samples.

Results

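The small leucine-rich proteoglycans (SLRPs) are a family of secreted matrix proteins. Of their genes, 10 (Dcn, Bgn, Aspn, Fmod, Lum, Prelp, Omd, Ogn, Chad and Podn) were followed here in cardiac fibroblast preparations given reprogramming factors. The 10 genes were found by symbol among the 54532 genes of the expression table, each matching a single row. Levels are given as FPKM, fragments scaled by library size and by gene length, which can be set side by side between genes.

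The cells were MICFs, fibroblasts grown from the hearts of C57BL/6 mice with myocardial infarction (MI), induced surgically in males 8 weeks old. By the study's staining, such MICFs were mostly fibroblasts and also held macrophages and a few endothelial cells. The sorted cells may therefore be mixed. They were infected with tetracycline-inducible lentiviruses for MGT (Mef2c, Gata4 and Tbx5 on 1 construct), Myocd, Sall4 and eGFP, the genotype called MGTMyoS overexpression in the labels. All received doxycycline. Sorting was on eGFP alone, so a sorted cell need not hold every other virus. In the in vivo samples, the infected cells had been transplanted into the left ventricle of mice at the time of coronary ligation, and in the in vitro samples cells of the same infection had stayed in culture, with eGFP+ cells sorted from both after 1 week (Day 7) or 2 weeks (Day 14). The 4 groups, in vivo and in vitro at each week, held 2 libraries each.

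Several features limited the groups as a model. No group lacked the reprogramming factors, so an effect of the factors themselves was not measured. The study's methods describe tacrolimus, methylprednisolone and mycophenolate mofetil against rejection for its cell transplantation, and SB431542, an inhibitor of the TGF-β receptor, with baricitinib, an inhibitor of JAK kinases, for its reprogramming in culture. The labels of these 8 samples do not list these treatments. Where they were given, place, immunosuppressants and medium inhibitors cannot be told apart. The labels do not say which animals or wells the 2 libraries of a group came from, and p-values therefore measure the spread between these libraries, which may be technical. In sorted bulk cells, fewer cells of a type and less RNA per cell cannot be told apart either.

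SLRPs share a core of leucine-rich repeats, and most carry chondroitin, dermatan or keratan sulfate chains. They bind collagen fibrils and set how fibrils assemble, and several of them also bind growth factors such as TGF-β and cell surface receptors. In the heart they are made mainly by fibroblasts and lie in the interstitial matrix and in the scar that replaces infarcted muscle. By sequence they are divided into classes, of which Dcn, Bgn and Aspn belong to class I, Fmod, Lum, Prelp and Omd to class II, Ogn to class III, Chad to class IV and Podn to class V.

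Most of the 10 genes lie in small clusters of the mouse genome (GRCm38), and on chromosomes 13 and 10 members of different classes sit side by side. On chromosome 13, Aspn (chr13:49544443-49567565), Omd (chr13:49582462-49592822) and Ogn (chr13:49608046-49624501) followed each other on the plus strand within 80.1 kb, beside the related gene Ecm2. On chromosome 10, Dcn (chr10:97479609-97518143) and Lum (chr10:97565128-97572703) lay on the plus strand within 93.1 kb, followed by Kera and Epyc. On chromosome 1, Prelp (chr1:133910304-133921414, minus strand) and Fmod (chr1:134037254-134048277, plus strand) lay within 138.0 kb. Bgn (chrX:73483602-73495933), Chad (chr11:94565047-94569127) and Podn (chr4:108014791-108096445, minus strand) were single. The whole chromosome 13 cluster lies inside Cenpp on the other strand, with which only Aspn shares exon sequence, 0.297% of its exon bases. Prelp shares 9.68% of its exon bases with the antisense gene Gm15851. Whether reads there were assigned by strand is not known, since the counting was not stated to use it.

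The promoters of 4 members whose expression patterns differed most in kind are printed: Aspn with the widest gap between in vivo and in vitro samples among the abundant members, Bgn as the most abundant, Chad as the scarcest and Prelp as the gene whose in vivo level changed most between the weeks among those called. Each is the 250 bases before the RefSeq transcription start (build GRCm38.p6), written 5′ to 3′ on the gene's strand, and capitals mark, on either strand, the letters TATAAA of many core promoters, CAGACA as bound by SMAD factors, TGANTCA as bound by AP-1, or CCGCCC of the GC box.
Aspn, chr13:49544193-49544442, plus strand: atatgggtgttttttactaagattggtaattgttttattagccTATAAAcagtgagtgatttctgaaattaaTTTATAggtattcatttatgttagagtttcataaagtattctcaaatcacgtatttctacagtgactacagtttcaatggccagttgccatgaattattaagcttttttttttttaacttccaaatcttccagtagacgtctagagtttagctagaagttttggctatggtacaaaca
Bgn, chrX:73483351-73483600, plus strand: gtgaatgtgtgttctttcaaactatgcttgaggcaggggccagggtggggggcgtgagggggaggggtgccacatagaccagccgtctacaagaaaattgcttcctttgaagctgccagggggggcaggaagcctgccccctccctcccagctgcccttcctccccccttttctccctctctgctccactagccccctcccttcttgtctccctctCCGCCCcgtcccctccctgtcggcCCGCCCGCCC
Chad, chr11:94564797-94565046, plus strand: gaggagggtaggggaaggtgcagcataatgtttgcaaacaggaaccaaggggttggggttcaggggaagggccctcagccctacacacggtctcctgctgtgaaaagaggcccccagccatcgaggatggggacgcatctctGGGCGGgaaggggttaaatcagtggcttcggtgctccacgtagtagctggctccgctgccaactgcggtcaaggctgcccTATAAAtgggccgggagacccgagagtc
Prelp, chr1:133921402-133921651, minus strand: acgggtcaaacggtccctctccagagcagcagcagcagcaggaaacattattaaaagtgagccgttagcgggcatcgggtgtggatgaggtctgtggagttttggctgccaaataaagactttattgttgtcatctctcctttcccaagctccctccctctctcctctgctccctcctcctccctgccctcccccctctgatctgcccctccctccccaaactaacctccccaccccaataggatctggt
The Aspn window was poor in G and C (30% of bases) and held TATAAA at 207 and 178 bases before the start. The Bgn window, at 64.4% G and C, held CCGCCC at 34, 10 and 6 bases before the start, the last 2 of them overlapping, and no TATAAA. The Chad window, at 60.4% G and C, held 1 TATAAA at 28 bases and 1 CCGCCC at 108 bases. The Prelp window, at 55.6% G and C, held none of the capitalised letters. The RefSeq table had entries for 8 of the 10 genes, Dcn and Lum being the ones without, and Podn had 2 starts. Over these 8 genes, TATAAA was found in 3, against 13.0% of all 27025 promoters of the table, and CCGCCC in 3, against 32.9%. CANNTG (E-box letters), searched but not capitalised, was found in 6, against 66% of all promoters, while CAGACA and TGANTCA were found in 0, against 17.1% and 6.87%. A match of letters is a description of the window and not a binding site.

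Libraries held 12304242 to 14546904 fragments on genes, so that 1 fragment on a gene of 1 kb was worth an FPKM of 0.0650 to 0.0905. Of the fibroblast marker genes fixed for this work, Pdgfra, Pdgfrb, Tcf21, Thy1, Vim, Ddr2, Postn and 3 collagens, none was at 0 in both libraries of any group. The same held for the macrophage, mesothelial, cardiomyocyte, endothelial and mural cell markers, so that this check does not tell fibroblasts from other cells, and the levels of these lists are given beside the comparisons.

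The SLRP genes ranged from 127946 fragments in a library to 0, and Bgn was the highest of them in every library. Bgn encodes biglycan, which binds collagen fibrils and, when released from the matrix, activates Toll-like receptors. Its level was 1555 and 1610.3 FPKM in the libraries in vivo at 1 week, 481 and 475 in vitro at 1 week, 1643 and 1627 in vivo at 2 weeks, and 433 and 471 in vitro at 2 weeks. In vivo, Bgn ranked 14 among all genes of the table at both weeks, and in culture it ranked 42 at 1 week and 65 at 2 weeks.

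At the other end, Chad, which encodes the cartilage matrix protein chondroadherin, was at 0.712 and 0.594 FPKM in vivo at 1 week and at 5.64 and 7.71 in vivo at 2 weeks. In vitro it was at 0.0387 and 0 at 1 week and at 0.301 and 0 at 2 weeks, where a count of 0 allows up to 3 fragments, an FPKM of 0.120 and 0.131 in the respective libraries. The order in vivo at 1 week was Bgn, Lum, Dcn, Aspn, Ogn, Prelp, Fmod, Podn, Omd and Chad, with no overlap between neighbours. In vitro at 1 week, Dcn came after Bgn, Ogn and Lum followed with overlapping libraries, and Aspn fell behind Prelp and Fmod to the seventh place. At 2 weeks in vivo, Dcn stood above Lum, and Omd and Chad overlapped at the low end.

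**Figure D1:**
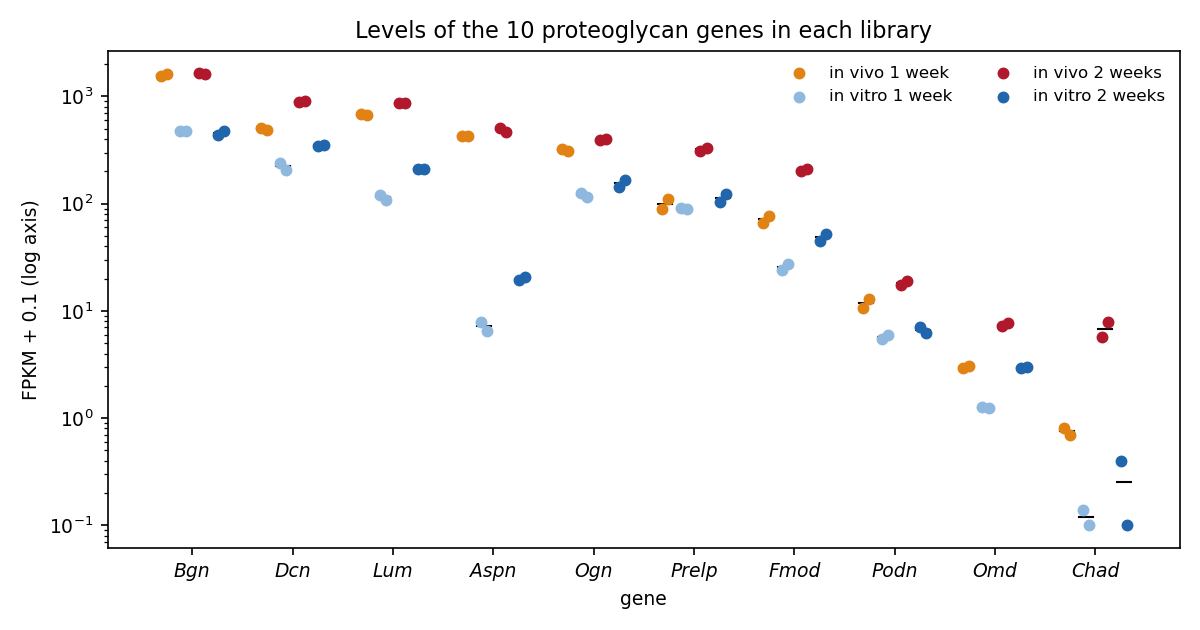
FPKM + 0.1 of each SLRP gene in each of the 8 libraries, on a log axis, with genes ordered by their level in vivo at 2 weeks. Points are libraries, colours the 4 groups and short lines the group means. Aspn drops from 428 and 425 FPKM in vivo to 7.75 and 6.34 in vitro at 1 week, while the Prelp libraries of the places overlap at that week.

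Summed over the 10 genes, SLRP transcripts were at 3687 ± 31.1 FPKM in vivo at 1 week (SD, n = 2) against 1066 ± 44.3 in vitro (SD, n = 2), and at 4853 ± 2.34 against 1358 ± 69.0 at 2 weeks. They took 1.18% and 1.21% of all FPKM in the libraries in vivo at 1 week and at most 1.5% at 2 weeks, against 0.401% to 0.467% in the 4 libraries in vitro. The summed level in vivo was thus 3.46 ± 0.147 times that in vitro at 1 week and 3.57 ± 0.182 times at 2 weeks (error propagated from the SDs). All 4 libraries in vivo lay above all 4 in vitro.

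The first question was how SLRP expression differed between sorted cells from the infarcted heart and those left in culture. At 1 week, 8 of the 10 genes were higher in vivo and 0 were lower, at an adjusted p under 0.01 and a change of more than 2-fold (limma on log2(FPKM + 0.1), Benjamini-Hochberg over 15708 genes), whereas 7.79% of all genes tested were called higher and 5.07% lower. At 2 weeks all 10 were higher and 0 were lower, against 9.02% and 8.05% of all genes. The 10 genes were chosen with earlier results of these data known, so these counts beside the shares are a description. Log2 fold changes below are on the log2(FPKM + 0.1) scale, which understates the change of low genes. Chad reached the test only through its in vivo libraries, since genes needed an FPKM of 0.5 in 2 libraries, so the filter itself favoured a difference by place. The other 9 genes passed that filter in all 8 libraries, and their median was a log2 difference of 1.39 at the first week and 1.51 at the second, against -0.01 and -0.00 over all genes tested. Both in vivo libraries lay above both in vitro libraries for 9 of the 10 genes at 1 week, against 36.2% of all genes, and for 10 at 2 weeks, against 36.8%. Chad is included in both of these counts. The FPKM carry a scaling between libraries, and without it the median of all genes shifted to -0.34 at 1 week and -0.32 at 2 weeks.

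Among class I genes, Aspn showed the widest difference. It encodes asporin, a collagen-binding protein that also binds TGF-β. Its level was 428 and 425 FPKM in vivo and 7.75 and 6.34 in vitro at 1 week, and 510.0 and 466 in vivo and 19.2 and 20.5 in vitro at 2 weeks. The groups lay far apart at both weeks, and Aspn was 60.0-fold higher in vivo at 1 week (log2 fold change 5.91 ± 0.10 SE, limma adjusted p = 2.1e-07) and 24.4-fold higher at 2 weeks (4.61 ± 0.10, adjusted p = 5.3e-07). In number of fragments, these levels rested on 11797 to 13551 per library in vivo and on 223 to 657 in vitro.

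Bgn, whose levels are given above, was 3.31-fold higher in vivo at 1 week (log2 fold change 1.73 ± 0.08, adjusted p = 8.7e-06) and 3.62-fold higher at 2 weeks (1.86 ± 0.08, adjusted p = 4.7e-06). Dcn encodes decorin, which coats collagen fibrils and binds TGF-β. Its level was 506 and 490.2 FPKM in vivo and 239.7 and 208 in vitro at 1 week, and 892 and 913 in vivo and 346 and 356 in vitro at 2 weeks. Dcn was higher in both in vivo libraries at each week, by 2.23-fold at 1 week (log2 fold change 1.16 ± 0.08, adjusted p = 6.5e-05) and 2.57-fold at 2 weeks (1.36 ± 0.08, adjusted p = 2.5e-05). Quantile normalization ended the Dcn call, leaving it at 0.49 on the log2 scale at 1 week and at 0.85 at 2 weeks.

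Of the class II genes, Lum encodes lumican, a keratan sulfate proteoglycan that spaces collagen fibrils. Its level was 680.2 and 674 FPKM in vivo and 121 and 108 in vitro at 1 week, and 872 in both libraries in vivo and 209 in both in vitro at 2 weeks. Lum was separated by place at both weeks, 5.90-fold at 1 week (log2 fold change 2.56 ± 0.07, adjusted p = 1.3e-06) and 4.17-fold at 2 weeks (2.06 ± 0.07, adjusted p = 2.5e-06). Fmod encodes fibromodulin, which binds collagen at a site near that of lumican and is abundant in tendon. Its level was 66.5 and 76.3 FPKM in vivo and 24.2 and 27.1 in vitro at 1 week, and 199.9 and 209.5 in vivo and 44.8 and 51.8 in vitro at 2 weeks. Fmod was higher in vivo by 2.78-fold at 1 week (log2 fold change 1.47 ± 0.10, adjusted p = 5.9e-05) and by 4.24-fold at 2 weeks (2.08 ± 0.10, adjusted p = 1.0e-05).

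Prelp, which encodes a protein that links collagen with heparan sulfate chains, was the exception at 1 week. It was at 89.2 and 110.4 FPKM in vivo and at 90.5 and 88.6 in vitro, so that the groups overlapped, and its log2 fold change of 0.15 ± 0.12 did not pass the test (adjusted p = 0.36). At 2 weeks Prelp was at 313 and 333 FPKM in vivo and at 104 and 123 in vitro, a 2.85-fold difference with no overlap (log2 fold change 1.51 ± 0.12, adjusted p = 8.2e-05). The direction at 1 week was not fixed, since the log2 fold change ranged from -0.19 to 0.30 over the alternatives.

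Omd encodes osteomodulin, a keratan sulfate proteoglycan described in bone. Omd was at 2.81 and 2.94 FPKM in vivo and at 1.16 and 1.13 in vitro at 1 week, and at 7.05 and 7.65 in vivo and 2.83 and 2.88 in vitro at 2 weeks. Both in vivo libraries were higher at each week, with log2 fold changes of 1.26 ± 0.10 (adjusted p = 1.2e-04) and 1.33 ± 0.10 (adjusted p = 7.0e-05). The 1-week value fell under a 2-fold change with a pseudocount of 1 (0.85 on the log2 scale) and without the scaling between libraries (0.93). The 2-week in vitro libraries of Omd lay within the range of its 1-week in vivo libraries.

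The remaining classes had 1 gene each. Ogn, which encodes osteoglycin (also called mimecan), was at 326 and 307 FPKM in vivo and 127 and 115 in vitro at 1 week, and at 394 and 398 in vivo and 143 and 166 in vitro at 2 weeks. Its log2 fold changes were 1.39 ± 0.09 (adjusted p = 4.0e-05) and 1.36 ± 0.09 (adjusted p = 3.4e-05), and those by quantile normalization were 0.91 and 0.98, under the fold threshold. Podn encodes podocan, a collagen-binding protein described in kidney podocytes and smooth muscle. Podn was at 10.4 and 12.9 FPKM in vivo and 5.42 and 5.86 in vitro at 1 week, and at 17.5 and 19.1 in vivo and 6.94 and 6.17 in vitro at 2 weeks. The groups did not overlap, with log2 fold changes of 1.03 ± 0.12 (adjusted p = 6.2e-04) and 1.47 ± 0.12 (adjusted p = 9.6e-05). At 1 week Podn lay just past the fold threshold, and its log2 fold change was 0.88 without the second library in vivo at 1 week and 0.97 without the first in vitro.

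Chad rested on few fragments, 14 and 13 in vivo and 1 and 0 in vitro at 1 week, and 107 and 143 in vivo and 7 and 0 in vitro at 2 weeks. Scaled for library size, the fragments in vivo were 33.1 times those in vitro at 1 week (exact 95% interval 5.46 to 1355, counting error only) and 43.9 times at 2 weeks (21.0 to 110.2). The fitted log2 fold change was 2.67 ± 0.63 at 1 week, which missed the threshold (adjusted p = 0.013), and 5.06 ± 0.63 at 2 weeks (adjusted p = 6.4e-04). These p-values are descriptive, since Chad reached the test only through its in vivo libraries. The 1-week value passed at an adjusted p of 0.0022 and 0.0017 without the first and the second library in vitro at 2 weeks, and the 2-week call was lost with a pseudocount of 0.01 (adjusted p = 0.010) and with the 4 libraries of that week alone (adjusted p = 0.016).

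**Figure D2:**
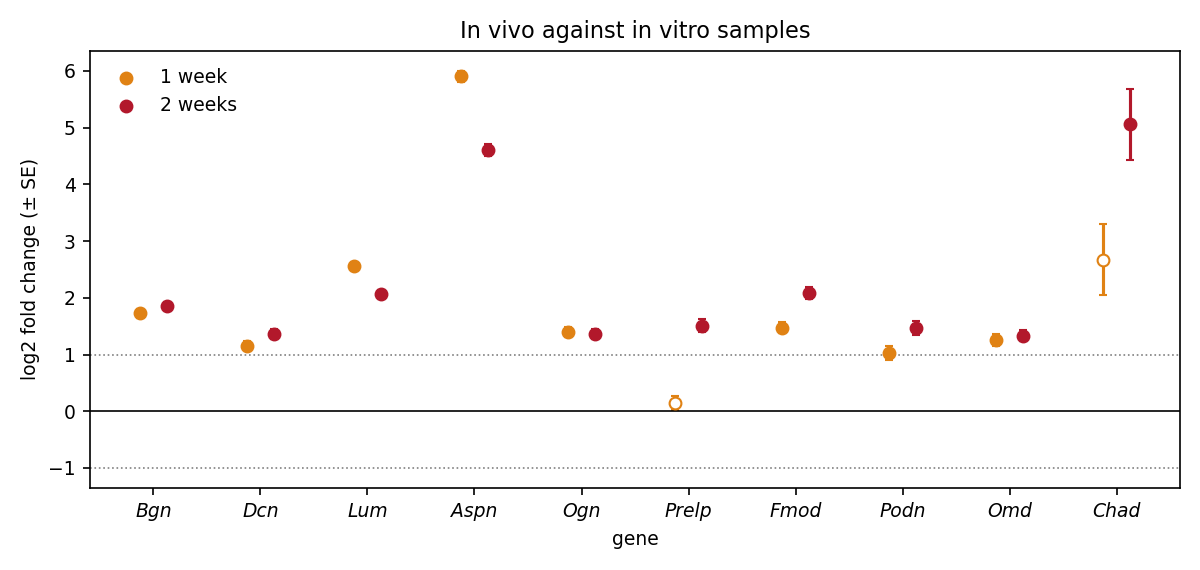
Log2 fold change of each SLRP gene, in vivo against in vitro, at 1 week and at 2 weeks, with bars of 1 SE; filled points are past the threshold and dotted lines mark a 2-fold change. Aspn lies highest at 1 week at 5.91 and Prelp at 1 week lies near 0 at 0.15.

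The second question was how SLRP expression changed from the first to the second week. In vivo, 3 genes rose, Prelp, Fmod and Omd, all of class II, and 0 fell, against 1.23% and 0.949% of all genes tested. Lum, also of class II, was not called (log2 fold change 0.36, limma adjusted p = 0.018). In vitro, 2 genes rose, Aspn and Omd, and 0 fell, against 2.76% and 1.05% of all genes. The comparisons between weeks use the same 8 libraries as those between places. Over the 9 genes without Chad, the median log2 fold change was 0.65 in vivo and 0.65 in vitro, against -0.00 and 0.02 over all genes.

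In vivo, Prelp rose from 89.2 and 110.4 FPKM to 313 and 333, a log2 fold change of 1.70 ± 0.12 (adjusted p = 8.3e-04). Fmod, the neighbour of Prelp on chromosome 1, rose from 66.5 and 76.3 to 199.9 and 209.5, with 1.52 ± 0.10 (adjusted p = 6.9e-04), and Omd rose with 1.32 ± 0.10 (adjusted p = 9.8e-04). The libraries of the weeks did not overlap for any of the 3. Without the first library in vivo at 1 week, the 3 calls were lost at adjusted p-values of 0.012 for Prelp, 0.013 for Fmod and 0.013 for Omd, with log2 fold changes of 1.55, 1.42 and 1.29. Omd was also lost without the second (adjusted p = 0.011), and all 3 were lost when the 4 in vivo libraries were fitted alone (adjusted p = 0.033 to 0.034). Chad had 27 fragments in vivo at 1 week and 250 at 2 weeks, a ratio of 10.3 (exact 95% interval 6.88 to 15.9, counting error only), but its fitted log2 fold change of 3.16 ± 0.63 missed the threshold (adjusted p = 0.019). It was called with limma voom on the recovered fragments (adjusted p = 8.3e-04), with a pseudocount of 1 (adjusted p = 8.5e-04), among protein-coding genes only (adjusted p = 0.0048), and without the first or the second library in vitro at 2 weeks (adjusted p = 0.0070 and 0.0058).

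Dcn went from 506 and 490.2 FPKM to 892 and 913 in vivo, a log2 fold change of 0.86 ± 0.08 (adjusted p = 0.0017) that was under the fold threshold. Podn stood at 0.65, Lum at 0.36, Ogn at 0.32 and Aspn at 0.19, none of them past it. Bgn, the most abundant, had a log2 fold change of 0.05 ± 0.08 in vivo (adjusted p = 0.72) and -0.08 ± 0.08 in vitro (adjusted p = 0.47).

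In vitro, Aspn rose from 7.75 and 6.34 FPKM to 19.2 and 20.5, a log2 fold change of 1.49 ± 0.10 (adjusted p = 3.5e-04). Omd rose by 1.25 ± 0.10 (adjusted p = 6.1e-04). At 2 weeks the in vitro level of Aspn was still far below either in vivo group. Fmod with 0.91 ± 0.10 (adjusted p = 0.0018), Lum with 0.86 ± 0.07 (adjusted p = 6.4e-04) and Dcn with 0.65 ± 0.08 (adjusted p = 0.0027) had small adjusted p-values and changes under 2-fold. Without the first library in vitro at 2 weeks, Fmod reached 1.01 and was called (adjusted p = 0.0085). When the 4 in vitro libraries were fitted alone, Aspn and Omd were lost (adjusted p = 0.018 and 0.019).

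**Figure D3:**
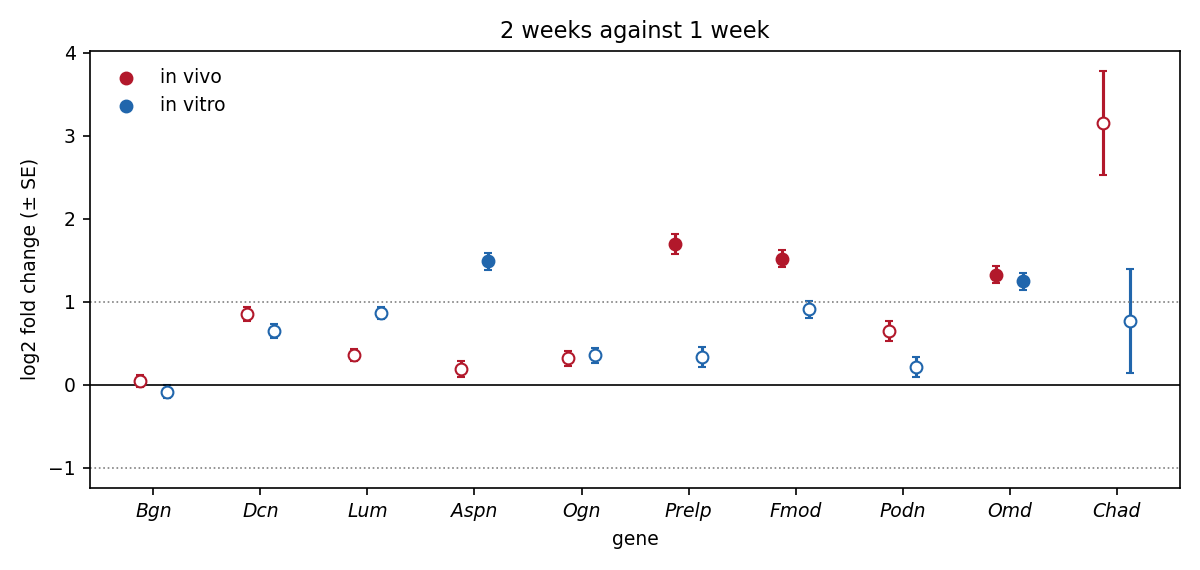
Log2 fold change of each SLRP gene, 2 weeks against 1 week, in vivo and in vitro, with bars of 1 SE; filled points are past the threshold and dotted lines mark a 2-fold change. Prelp and Fmod are filled in vivo and not in vitro, Aspn is filled in vitro and not in vivo, and Omd is filled in both.

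Whether the difference between places itself changed between the weeks was tested with an interaction term. Prelp was called higher and Aspn lower, 1 gene in each direction, against 0.573% and 1.15% of all genes. The Prelp difference by place widened by 1.36 ± 0.17 on the log2 scale (adjusted p = 0.0064), from 0.15 to 1.51. The Aspn interaction was -1.30 ± 0.14 (adjusted p = 0.0049), a narrowing from 5.91 to 4.61 that came with the in vitro rise, while the in vivo level had a log2 fold change of 0.19 ± 0.10 (adjusted p = 0.24). Both calls were near the threshold and were lost without any 1 of the 8 libraries, at adjusted p-values of 0.020 to 0.036 for Prelp and 0.014 to 0.035 for Aspn, while the estimates stayed between 1.21 and 1.52 and between -1.44 and -1.15. Fmod (0.61 ± 0.14, adjusted p = 0.045), Lum (-0.50 ± 0.10, adjusted p = 0.029) and Chad (2.39 ± 0.89, adjusted p = 0.14) did not pass, and neither did Dcn, Bgn, Ogn, Omd and Podn, with estimates from -0.03 to 0.44. The interaction for Omd was 0.08 ± 0.14 (adjusted p = 0.78).

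The make-up of the SLRP transcripts was compared as the share of each gene in the summed FPKM of the 10. Bgn held 42.9% in vivo against 44.9% in culture at 1 week, then 33.7% against 33.3%, so its share moved with the week more than with place. Aspn held 11.6% and 10.1% in vivo at 1 and 2 weeks, against 0.660% and 1.46% in vitro. Dcn held 13.5% and 18.6% in vivo and 21.0% and 25.9% in vitro. Prelp held 2.71% in vivo at 1 week and 6.65% at 2 weeks, against 8.40% and 8.35% in vitro. The 2 libraries of each group had nearly the same make-up, with Aspn at 11.7% and 11.4% in vivo and 0.706% and 0.613% in vitro at 1 week.

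**Figure D4:**
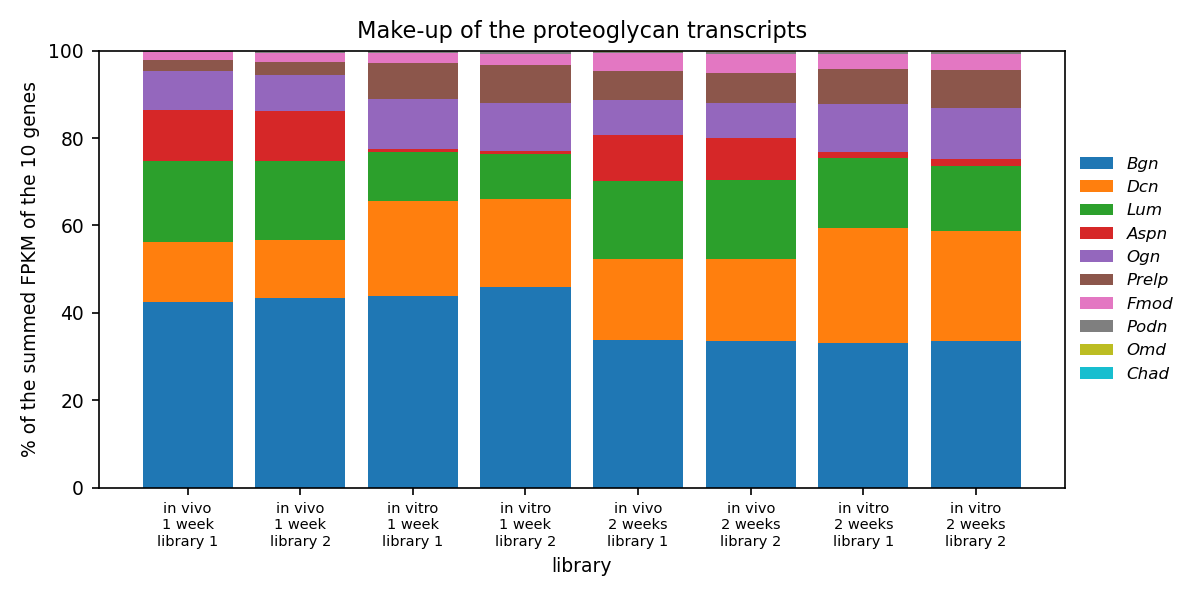
Share of each SLRP gene in the summed FPKM of the 10 genes, in percent, as a stacked bar for each of the 8 libraries. The Aspn band holds 9.60% to 11.7% in the in vivo libraries and 0.613% to 1.47% in the in vitro libraries, and the Bgn band is narrower at 2 weeks than at 1 week in both places.

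Other genes of the family were followed as a list of 8, Kera, Epyc, Optc, Nyx, Tsku, Podnl1, Ecm2 and Chadl, of which 5 were tested. At 1 week 3 of them, Epyc, Podnl1 and Ecm2, were called higher in vivo, Tsku joined them as the fourth of 4 at 2 weeks, and 0 were lower at either. Epyc and Podnl1 reached the test through their in vivo libraries, so the filter favoured a difference by place. Setting them aside leaves 1 of 3 other genes called at the first week and 2 of 3 at the second. Ecm2, the neighbour of Aspn, was at 22.4 and 20.6 FPKM in vivo and 3.42 and 3.49 in vitro at 1 week, and at 38.2 and 40.4 in vivo and 6.85 and 7.64 in vitro at 2 weeks. These groups were clearly separated, with log2 fold changes of 2.60 ± 0.08 (adjusted p = 2.0e-06) and 2.42 ± 0.08 (adjusted p = 2.2e-06). Epyc, beyond Lum on chromosome 10, was low, with 1.40 and 1.17 FPKM in vivo and 0.254 and 0.261 in vitro at 1 week, and its log2 fold changes were 1.95 ± 0.27 and 2.30 ± 0.27. It shares 40.6% of its exon bases with the antisense gene Gm10754. Kera, between Lum and Epyc, was at 0 in all 8 libraries, which allows an FPKM of up to 0.0855 to 0.119 per library. Chadl was tested and not called, with log2 fold changes of 0.47 and 0.95, and Optc and Nyx were too low to be tested.

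The enzymes that build the sugar chains of SLRPs were followed as lists by kind of chain. Of 25 tested genes of chondroitin and dermatan sulfate synthesis, 8 were higher in vivo at each week and 0 were lower, and the median of the list stood at 0.52 and then at 0.73 on the log2 scale. Chst3 reached the test through its in vivo libraries and was not called, which leaves 8 of 24 other genes at each week. Xylt1, which attaches the first sugar of the chain to the core protein, was higher by 2.46 ± 0.17 and 2.94 ± 0.17 on the log2 scale at 1 and 2 weeks (adjusted p = 5.8e-05 and 2.1e-05). Papss2, which makes the sulfate donor, stood at 1.68 and 2.65, and the chain polymerase genes Chsy3 (2.74 and 2.50) and Chpf (2.16 at 2 weeks) were also called. Of 5 tested genes of keratan sulfate synthesis, only the sulfotransferase Chst2 was higher, by 2.27 ± 0.17 and 1.98 ± 0.17 (adjusted p = 8.1e-05 and 1.2e-04), and Chst1, which sulfates galactose in the chain, was lower at 2 weeks by -1.71 ± 0.21 (adjusted p = 5.7e-04) and not at 1 week (-0.06). The median of this list was -0.06 and -0.48.

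Fibrillar collagens, the partners of SLRPs in the matrix, were higher in vivo in 8 of 9 cases at each week, with Col11a2 the one not called and medians of 2.04 and 2.60. Col2a1 reached the test through its in vivo libraries, and without it 7 of 8 were higher at each week. On the log2 scale, the cartilage collagen genes Col2a1 and Col11a1 were higher by 3.31 and 3.86 at the first week, then by 3.83 and 3.81. Col5a1 stood at 2.21 and later at 3.13, and Col1a1, of the main scar collagen, stood at 2.36 at 1 week (adjusted p = 1.2e-05). From 1 to 2 weeks in vitro, 0 of the 9 collagens rose and 3 fell, against 2.76% and 1.05% of all genes tested. The 3 were Col1a1, Col5a1 and Col5a2, at -1.20, -1.22 and -1.13 on the log2 scale. Of 19 tested other proteoglycans, 10 were higher in vivo at 1 week with only Gpc3 lower, whereas 2 weeks gave 8 higher and 3 lower (Esm1, Gpc3 and Sdc4). Acan and Prg4 reached the test through their in vivo libraries, and without them 8 of 17 and then 6 of 17 were higher. Prg4, the lubricin of joint surfaces, stood at 6.74 and 7.36, the cartilage proteoglycan Acan at 6.02 and 5.25 and the hyaluronan-binding Vcan at 4.01 and 3.71, while Esm1 was at 0.62 at 1 week and -2.54 at 2 weeks.

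Growth factors and receptors that bind SLRPs, or act beside them, went both ways. Of 20 tested, the 1-week samples had 5 higher in vivo (Ctgf, Wisp1, Tgfb3, Pdgfb and Kdr) and 3 lower (Met, Bmp4 and Bmp2). The 2-week samples had 5 higher (Wisp1, Ctgf, Tgfb3, Lrp1 and Egfr) and 2 lower (Bmp2 and Met). Met reached the test through its in vitro libraries, so the filter favoured a difference by place. Ctgf, a matrix protein induced by TGF-β, stood at 3.16 and 2.60, and Tgfb3 at 2.09 and 2.05. Tgfb1, a ligand of decorin named here after its values were seen, was at 29.5 and 30.9 FPKM in vivo and 30.8 and 36.7 in vitro at 1 week, and was not called at either week. A list of proteases that process or cleave SLRPs also held the protease enhancers Pcolce and Pcolce2. Of its 15 tested genes, the 1-week samples had 4 higher in vivo (Bmp1, Mmp2, Adamts15 and Mmp14) and 4 lower (Adamts5, Mmp13, Mmp3 and Mmp12). The 2-week samples had 3 higher (Bmp1, Mmp2 and Adamts15) and 3 lower (Mmp13, Adamts4 and Mmp12). Bmp1, which removes the propeptide of biglycan, was at 115 and 120.0 FPKM in vivo and 30.4 and 29.4 in vitro at 1 week, a log2 fold change of 1.97 ± 0.07 (adjusted p = 2.8e-06).

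**Figure D5:**
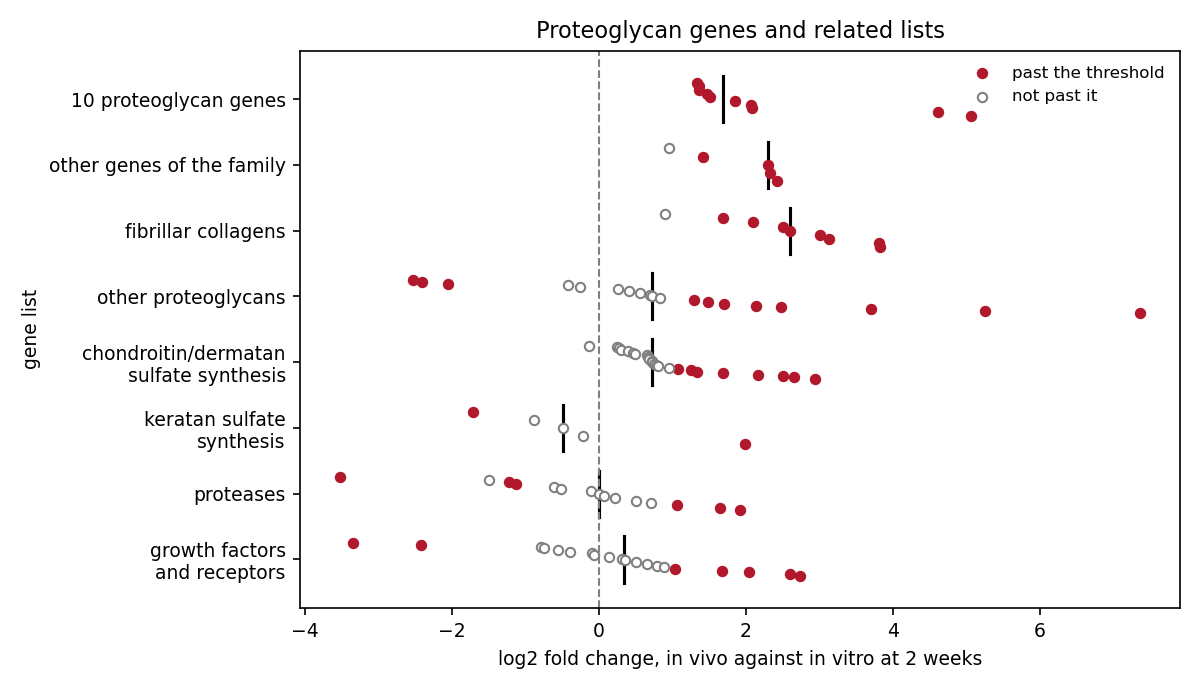
Log2 fold change in vivo against in vitro at 2 weeks for each tested gene of the SLRP list and of 7 related lists; red points are past the threshold, open points are not and vertical bars are list medians. All 10 SLRP genes lie to the right of 0, with a median of 1.68, or 1.51 without Chad. So do 9 of 9 fibrillar collagens, whereas the protease list lies on both sides with a median of 0.01. Chad and Col2a1 reached the test through their in vivo libraries, so the filter favoured a difference by place.

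Markers of other cell types moved with the SLRP genes in several cases, and their part in the SLRP differences was not tested. Of 13 tested cartilage and tendon markers, 11 were called higher in vivo at the first week, 12 at the second and 0 lower, and their summed level over 14 genes was 543 to 650 FPKM in vivo against 11.0 to 11.2 in vitro at 1 week and 1962 to 1965 against 17.6 to 20.8 at 2 weeks. Of the 13, Acan, Col2a1, Tnmd, Mkx, Thbs4, Matn3 and Cytl1 reached the test through their in vivo libraries, so the filter favoured a difference by place. Even so, Mkx was called at neither week and Cytl1 was not called at 1 week. The other 6 were called higher at both weeks. Comp, which is made in cartilage and tendon, had log2 fold changes of 9.19 and 10.53. Snorc and Cytl1 were at 0 in both libraries in vitro at 1 week, and Snorc in both at 2 weeks. Acan, Col2a1 and Col11a1 stand in this list and in those above. The fibroblast list of 10 held 4 genes higher at 1 week (Col1a1, Col1a2, Col3a1 and Postn) and 5 at 2 weeks (with Vim), and its sum was 12062 to 12946 FPKM in vivo against 3270 to 3386 in vitro at 1 week and 9320 to 10734 against 1939 to 1955 at 2 weeks. The other 5 of the list changed by less than 2-fold at both weeks and were named after their values were seen. They were the receptor genes Pdgfra (0.06 and 0.20 on the log2 scale) and Pdgfrb (-0.10 and 0.22), the transcription factor gene Tcf21 (0.32 and 0.35), and Thy1 (-0.75 and -0.36) and Ddr2 (-0.62 and -0.01), of which Thy1 and Ddr2 had small adjusted p-values at the first week (0.0019 and 6.4e-04).

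Macrophage markers, led by Lyz2, summed to 2748 to 3150 FPKM in vivo and 5308 to 6049 in vitro at 1 week, and to 2009 to 2425 and 4951 to 6073 at 2 weeks, so that the summed level was higher where the SLRP genes were lower. Lyz2 made up 88.0% of that gap at 1 week and 67.6% at 2 weeks, but 9 of the 12 genes had a higher mean in vitro at 1 week and 11 at 2 weeks. Genes picked after their values were seen were C1qa (-0.01), Csf1r (0.04) and Ptprc (0.15), not called at 1 week. At 2 weeks they stood at -0.67, -0.84 and -0.29, also not called. Cd14 (-0.71), Cd68 (-0.66), C1qc (-0.40), Adgre1 (-0.35) and C1qb (-0.30) were lower at 1 week and not called. Mrc1 (-0.86, limma adjusted p = 0.0049) and Itgam (-0.52, adjusted p = 0.0044) were lower in vivo at 1 week by less than 2-fold. Of the 12, Fcgr1 was called higher and Lyz2 lower in vivo at 1 week, 1 gene each way. The second week had 6 lower (Lyz2, Cd68, Mrc1, C1qc, C1qb and Adgre1) and 0 higher. Mesothelial markers, 7 of 7 lower in vivo at both weeks, summed to 15.2 to 17.2 FPKM against 242 to 249.4 at 1 week and 34.3 to 34.7 against 507 to 515 at 2 weeks. Cardiomyocyte markers summed to 18.2 to 21.0 in vivo and 200.7 to 222 in vitro at 1 week, and 8 of 10 were lower in vivo, with 1 higher (Pln). Myh6, Ryr2 and Actn2 reached the test through their in vitro libraries and Pln through its in vivo ones, and the other 6 were lower at both weeks. At 2 weeks they summed to 29.0 to 50.5 in vivo against 1120.0 to 1322, with 9 lower and 1 higher. Endothelial markers summed to 108 to 116 and 23.3 to 24.4 at 1 week and to 109 to 117 and 54.5 to 64.1 at 2 weeks, with 9 and 5 of 10 higher and 0 lower, Vwf among them having reached the test through its in vivo libraries. Mural cell markers summed to 161 to 174 against 113 to 127 at 1 week, with 5 of 8 higher and 1 lower, and to 121 to 137 against 152 to 162 at 2 weeks, with 2 higher and 4 lower. No defining marker of these 5 lists was at 0 in both libraries of any group.

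Finally, for each SLRP gene the protein-coding genes with the most similar pattern over the 8 libraries were listed by the root mean square difference of their centred log2 values, as a description. Bgn was nearest to Creb3l2 (0.065), whose mean level in vivo was 56.0 and then 52.5 FPKM, against 15.6 and then 14.4 in culture. Ogn was nearest to Glis2 (0.078), Podn to C1ra (0.092), Dcn to Dact3 (0.098) and Fmod to the collagen gene Col22a1 (0.103). Lum was nearest to Pmepa1 (0.112), Omd to Wnt5b (0.134) and Prelp to Gm12216 (0.120). Aspn had no pattern as close, the nearest being the heat shock gene Hspa1a (0.198), Rgs4 (0.265) and the collagen gene Col8a2 (0.278), and Chad, with its low counts, was nearest to Rbp7 (0.551). Within the family the closest pair was Ogn and Podn (0.207), and the nearest member to Aspn was Chad at 1.40.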

How the data were processed

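Total RNA of sorted eGFP+ cells was made into libraries with the SMARTer mRNA-Seq kit, per the labels. Per the submitters' processing notes, CASAVA and HISAT2 2.0.5 were used with build mm10, and the counting tool is not given in the sources used here. The deposited values are FPKM of 54532 genes in 8 libraries, computed by the authors. Times gene length, 100% of values up to 1000 fragments were whole fragments (within 0.01), and the library size that the values imply, divided by the fragments on genes, came to 0.863 to 0.915 for in vivo and 1.09 to 1.15 for in vitro libraries, so that a scaling between libraries was already in the FPKM.

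The members and lists were chosen with earlier results of these data known. The 15708 genes that reached an FPKM of 0.5 in 2 or more libraries were fitted as log2(FPKM + 0.1) with limma 3.58.1 (R 4.3.3) in 4 groups, with an intensity trend in the variance and Benjamini-Hochberg adjustment over all of them. Genes were called at an adjusted p under 0.01 and a log2 change over 1. The fit was tested on simulated data. The members were named in every comparison, and from each list at most 4 called genes by size at 2 weeks and those a count of 5 or fewer refers to. For each member, 3 nearest patterns were sought among 13095 protein-coding genes. Ccn2 and Ccn4 were read as Ctgf and Wisp1 through RefSeq synonyms. Coordinates are those of the deposited table, of which 98.3% of 54409 shared genes had the same start and end in GENCODE for GRCm38. Replicates differed beyond sampling noise (chi-square per gene 4.63 to 10.2), and same-numbered libraries did not deviate together (correlations -0.0477 to -0.0107), so numbers were not treated as pairs.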

Additional observations from a re-analysis of the deposited data

Results flagged for a closer look

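For Aspn and Prelp, transplanted and cultured cells differed to another degree at 1 week than at 2 weeks, by the interaction term of the limma fit. The log2 difference between the weeks was -1.30 for Aspn (adjusted p = 0.0049) and 1.36 for Prelp (adjusted p = 0.0064). No group had 4 or more libraries, so single libraries were not tested for standing apart.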

How the results depend on the processing

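Among values of single SLRP genes under the alternatives, 932 stayed on the same side of the threshold, 45 were no longer called, 13 became called and 0 reversed from a called value. Among those not called, 10 values of 5 results had the other sign: Prelp between places at 1 week (down to -0.19), Bgn (-0.02) and Lum (-0.01) between weeks in vivo, Chad between weeks in vitro (-0.24) and the Ogn interaction (up to 0.07). The count of members higher in vivo at 1 week went from 8 to 5 without the scaling between libraries (Dcn, Omd and Podn lost) and to 6 with quantile normalization and with a pseudocount of 1. The count rising in vivo went from 3 to 0 with only the 4 libraries compared. Chad joined the 3 with limma voom, with a pseudocount of 1 and among protein-coding genes only. The count also changed with single libraries left out, as given above. Over all alternatives, the lowest log2 fold changes between weeks in vivo were 1.40 for Prelp, 1.26 for Fmod and 1.11 for Omd. The count rising in vitro went from 2 to 1 with a pseudocount of 1 and to 0 with only the 4 libraries compared. The interaction counts, 1 higher and 1 lower, were 0 and 0 with no filter on low values, with no variance trend, and without any 1 library, and 2 were higher with a pseudocount of 1 (with Chad). With the replicate number as a block, both interaction counts were 0 (adjusted p = 0.011 for Prelp and 0.012 for Aspn) and no other call changed, but the numbers did not pair the samples. In TPM, the summed level in vivo over in vitro was 2.91 at 1 week and 3.21 at 2 weeks, against 3.46 and 3.57 in FPKM. A lone library left in a group was assumed to vary like the others. Chad had at most 143 fragments in a library and Omd 38 to 190, against at least 223 for each of the other genes, so that depth limits Chad and Omd most.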
